A study of Mus musculus with 9 samples.

Results

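Transcriptomes of E14 mouse embryonic stem cells (strain 129/Ola) were compared between serum/LIF culture, called mESC-ser, and 2i/LIF culture, called mESC-2i. Both groups held 3 libraries, so 6 of the 9 libraries of the series were used, and they were chosen by the labels of cell state alone. mESC-2i were kept in N2B27, a serum-free medium, with 1 µM of the MEK inhibitor PD0325901, 3 µM of the GSK3 inhibitor CHIR99021 and 10 ng/mL leukaemia inhibitory factor (LIF), and are labelled as naive. mESC-ser were kept on gelatin in DMEM with 15% foetal bovine serum, glutamine, β-mercaptoethanol, non-essential amino acids and 10 ng/mL LIF, and are labelled as primed. LIF was thus common to both groups, whereas basal medium, serum, supplements and the 2 inhibitors differed together and cannot be told apart. The labels give no coating for mESC-2i. All 6 libraries come from 1 cell line, and the labels number biological replicates without saying whether they were separate cultures, so p-values measure the spread between these samples. Of 38293 genes in the table, 15728 had enough counts to be tested.

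Embryonic stem cells keep their state by blocking the signals that lead to differentiation. In 2i this is done by inhibiting MEK, and with it ERK signalling, and by stabilising β-catenin through inhibition of GSK3. In serum the cells receive growth factors, lysophospholipids, lipids, iron carriers and BMP-like activity, and they are known to be more heterogeneous. Serum lipids are also the classical trigger of serum response factor (SRF) and of the coactivator YAP, which binds TEAD factors. SRF activity depends on the pool of free actin.

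Total counts were 7187576, 10995545 and 11523850 in mESC-2i replicates 1, 2 and 3, and 13845278, 11334906 and 16829549 in mESC-ser. Levels are given as CPM, which are counts scaled by TMM to a common library total, and a gene is called when the edgeR adjusted p is under 0.05 and the log2 fold change of mESC-ser against mESC-2i is beyond 0.5 in either direction. The stem cell identity of both groups was checked on 10 markers. Pou5f1, the core pluripotency factor, was at 951, 1174 and 742 CPM in mESC-2i and at 861, 889 and 746 CPM in mESC-ser. Its partner Sox2 was at 493 to 528 CPM and 501 to 594 CPM. Markers of other cells that a culture could hold were summed in each library. Primitive endoderm markers summed to 610 to 626 CPM in mESC-2i and 789 to 843 CPM in mESC-ser, trophectoderm markers to 154 to 163 CPM and 100 to 116 CPM, and feeder fibroblast markers to 115 to 120 CPM and 113 to 146 CPM. Primitive streak markers summed to 281 to 302 CPM and 107 to 111 CPM, and of these 7 of 14 tested genes were called lower and 3 higher. Trophectoderm had 4 of 10 lower and 3 higher, primitive endoderm 5 of 15 lower and 7 higher, and feeder cells 5 of 12 lower and 3 higher, in mESC-ser. Over all tested genes 30.3% were called lower and 25.9% higher. Fap, a fibroblast protease, and Tpbpa, a trophoblast gene, had 0 counts in all 6 libraries. Fewer cells of a type and less RNA per cell cannot be told apart in such bulk libraries, and the part of other cells in the results below was not tested. Reads of genes with overlapping exons cannot be told apart either. Of the genes named in these results, Actg1, Lats2, Bax, Ncl, Psmb5, Ctsd, Glb1, Gcat, mt-Co3, mt-Nd4, Sox1, Irf9, Zfp973, Eif4g2 and Eef1a1 overlap another gene on the same strand, Nop56, Ddit3, Aldh1l1, Gclm, Neurod1, H19, Igf2, Meg3 and Rack1 genes on both strands, and Pou5f1, Tagln, Vcl, Ccn2, Ptpn14, Crim1, Bmp4, Id4, Irs2, Cdc20, Pole, Cdkn1a, Cdkn1c, Ccnd1, Polr1a, Hnrnpu, Hspd1, Ctsb, Hexa, Grn, Lamp1, Ctsz, Cln3, Mybbp1a, Wdr43, Atf5, Cebpb, Tdh, Shmt1, Mat2a, Echs1, Acadvl, mt-Nd6, mt-Nd5, Me1, G6pdx, Mt2, Slc30a1, Esrp1, Grhl2, Cldn3, Tjp3, Zeb1, Thbs1, Col4a1, Nid1, Fn1, Zic1, Hes5, Grin1, Cubn, Gata6, Dab2, Sox17, Psmb8, Psmb9, Gbp2, Irf7, Zdbf2, Mest, Plagl1, Nnat, Trpm1, Bhmt, Sall4 and Platr30 a gene on the opposite strand, which these libraries without strand marks do not separate.

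Most tested genes differed between the cultures. The test called 8843 genes (56.2% of those tested), 4081 higher (25.9%) and 4762 lower (30.3%) in mESC-ser. In 11076 genes (70.4%) the CPM ranges of the groups were apart. Changes of more than 2 on the log2 scale were found in 744 genes called higher and 968 called lower, and changes of more than 5 in 73 and 107 genes. These shares are the background against which each group of genes below has to be read.

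Part of this difference followed the length of the genes. In 13292 protein-coding genes the median log2 fold change climbed from -0.46 in the shortest eighth by exonic length to 0.51 in the longest. In the shortest eighth 15.0% of the genes were called higher and 46.2% lower, and in the longest eighth 49.2% were called higher and 15.2% lower. Genes called higher had a median exonic length of 5825 bp, genes called lower 3478 bp and genes not called 4349 bp. The Spearman correlation across genes was 0.280 with exonic length, 0.190 with the number of exons, 0.189 with genomic length and -0.194 with GC content. Genes are not independent replicates and share these libraries, so the values are descriptions. With genes split into 3 classes of mean level, the correlation was 0.123 in the lowest class, 0.292 in the middle and 0.441 in the highest.

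The trend also separated libraries of the same group. Against the mean of the other libraries of its own group, mESC-2i replicate 2 correlated with exonic length at -0.45 and replicate 3 at 0.43, and mESC-ser replicate 3 was at 0.30 with the other mESC-ser libraries at -0.19 and -0.25. Against the other group, the 3 mESC-2i libraries were at -0.29, -0.34 and -0.19 and the 3 mESC-ser libraries at 0.26, 0.26 and 0.32. The sign between the groups was therefore the same in all 6 libraries, while the correlations of mESC-2i replicates 2 and 3 were larger in size against their own group than against the other. In the longest eighth of genes the medians of these replicates were -0.27 and 0.28 against their own group and -0.68 and -0.33 against mESC-ser. In size the value against mESC-ser was thus clearly larger for replicate 2 but only a little larger for replicate 3. Every list below was therefore fitted again with an offset for exonic length and GC content in each library, which removes such a trend within and between groups alike. This correction reduced the correlation with length to 0.030 and called 8365 genes (53.2%), 4283 higher (27.2%) and 4082 lower (26.0%). The same direction was called in both fits in 6992 genes, and opposite directions in 3. Whether the length trend is a property of the cells or of the libraries was not tested, so the calls of each list are given without and with the correction. Among the marker lists above, trophectoderm had 4 lower and 4 higher after it, and feeder cells 5 lower and 3 higher as before.

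**Figure D1:**
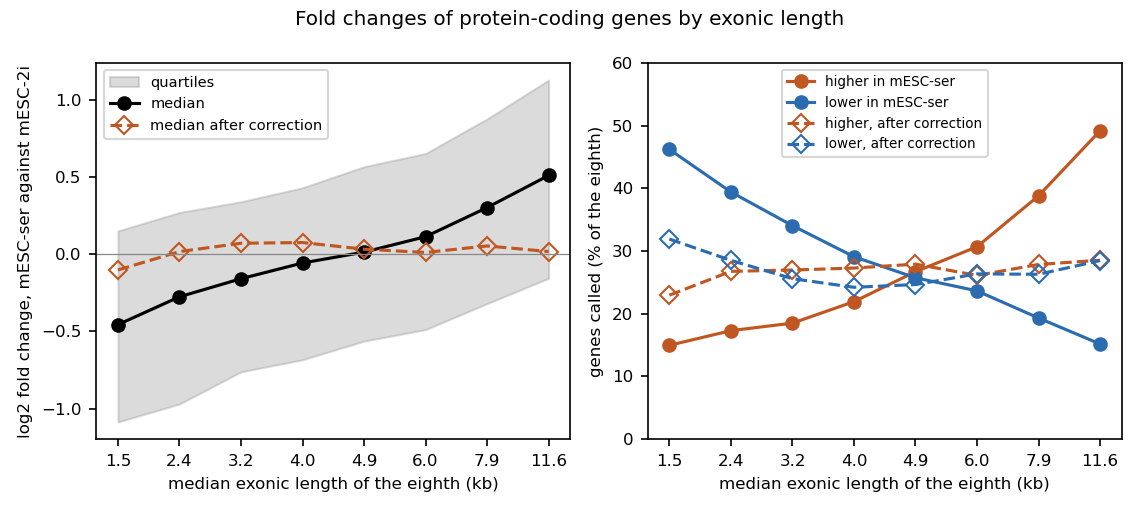
Left, the median log2 fold change (black) and quartiles (grey) of protein-coding genes in eighths of exonic length, with open diamonds for the corrected median. Right, the percent of genes of each eighth called higher (orange) or lower (blue), with open diamonds after the correction. The uncorrected median climbs from -0.46 to 0.51 and the corrected one stays between -0.10 and 0.07.

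The 33 lists of genes for pathways, cell structures and lineages leaned in different directions. 18 of them held more members called higher than lower in mESC-ser, 14 held more called lower, and 1 was even. Some of these margins were a single gene, as in the insulin (7 higher, 6 lower), matrix (12 and 11) and ER stress (5 and 4) lists. With the length and GC correction 17 lists held more higher calls, 13 more lower calls and 3 were even, and the balance changed in 5 lists. The actin and SRF list had the highest median of all lists, 1.14, and the neural lineage list the lowest, -1.87, where the median over all tested genes was -0.04. The neural median was 0.80 when only genes with at least 10 counts in every library were tested. After the correction the highest median was that of the epithelial list, 1.19, and the lowest again that of the neural list, -1.73.

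**Figure D2:**
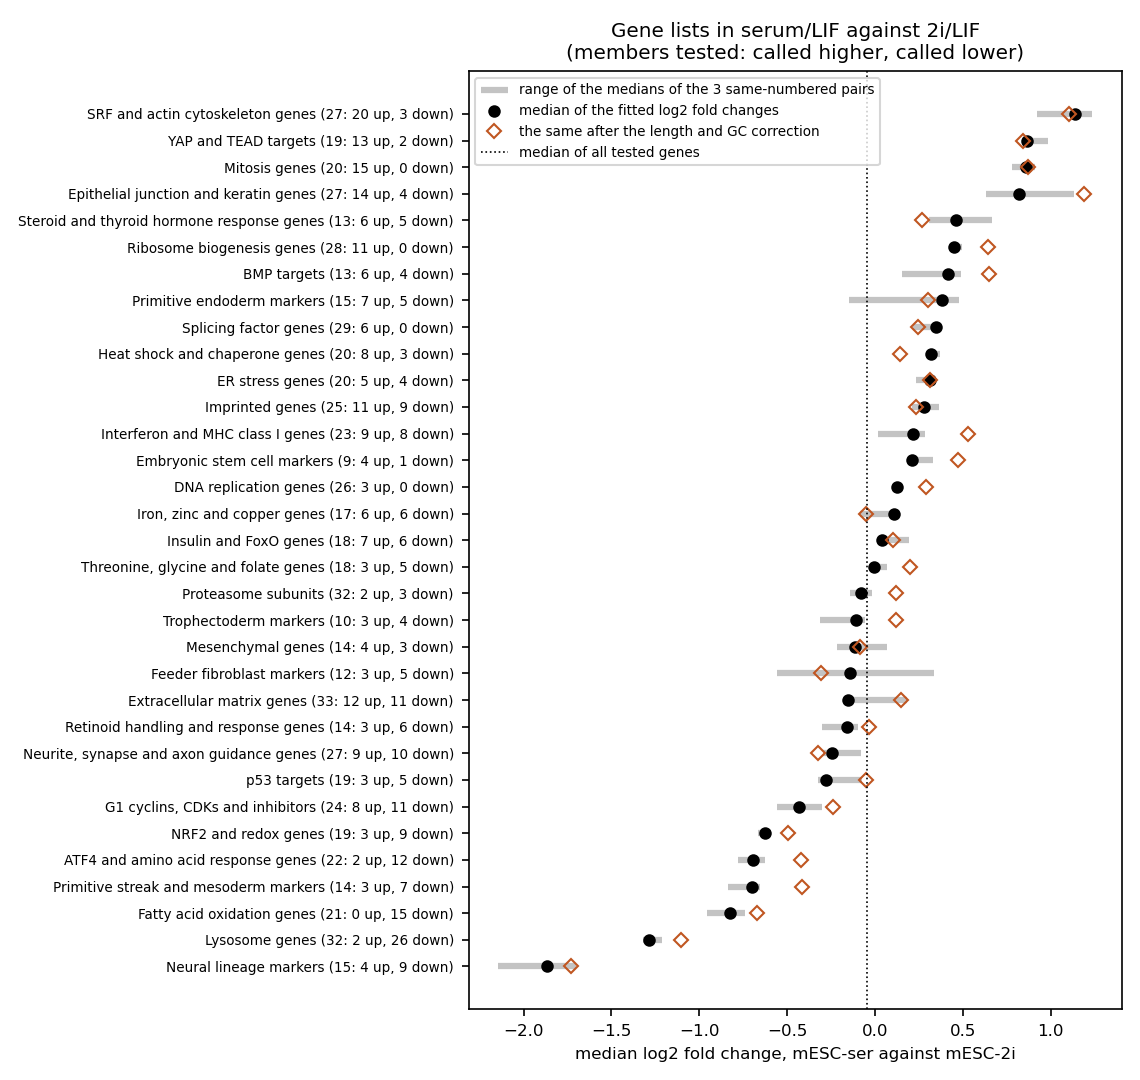
Median log2 fold change of each gene list (black points), the same after the length and GC correction (open diamonds), and the range over the 3 same-numbered pairs of libraries (grey bars). Each row gives the number of tested members and of those called higher and lower. The actin, YAP, mitosis and epithelial lists lie furthest to the right, and the lysosome and neural lists furthest to the left.

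Genes of the actin cytoskeleton were the list with the highest uncorrected median in serum culture. SRF binds CArG boxes before genes of contractile and structural actin proteins, and 20 of the 27 tested members rose, 3 fell and 4 were not called (median 1.14, and 1.11 after the correction with 20 higher and 2 lower). Tagln (transgelin, an actin-bundling protein; ENSMUSG00000032085, mm10 chr9:45929619-45936058, minus strand) was at 0.684, 2.16 and 1.02 CPM in mESC-2i and at 106, 106 and 75.4 CPM in mESC-ser. The groups were far apart (log2 fold change 6.14, SE 0.28, edgeR adjusted p = 5.98e-08). Myl9, a regulatory myosin light chain, rose from 0.281 ± 0.16 CPM (SD, n = 3) to 23.3 ± 0.49 CPM, by 6.24 (SE 0.24). Cnn1, the smooth muscle calponin, had 3 counts or fewer in each mESC-2i library, and its level in mESC-ser was at least 27.5-fold higher. Acta2 rose by 3.87, the tropomyosin gene Tpm2 by 3.65 and the calponin gene Cnn2 by 2.89. Abundant members rose less. Actb, cytoplasmic β-actin, was at 1876, 1974 and 1582 CPM in mESC-2i and at 2852, 2823 and 3030 CPM in mESC-ser (log2 fold change 0.68). Vinculin (Vcl), which links integrins to actin, rose by 1.23 (SE 0.10), and Srf itself by 1.10 (SE 0.12). The 3 members that fell were Lima1 (-1.84), Fhl1 (-1.39) and Tagln2 (-0.69), of which Tagln2 was not called after the correction (-0.33).

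A CArG box stood in the promoter window of 9 of the 24 SRF-list genes with an entry in the RefSeq promoter table (GRCm38.p6, 250 bases before to 50 after the start), 37.5%, against 1.65% of all tested genes with an entry. The SRF genes were chosen for the list as known targets, so the share describes the list and not the response. The motif shares of the other lists below likewise describe those lists and not a response. Of the 9 genes 7 rose (Acta1, Actg1, Cnn2, Fhl2, Myl9, Srf and Vcl) and 2 fell (Fhl1 and Lima1), with a median of 1.18, and the 15 genes without a match had a median of 1.14. A match is a description of these letters and not a binding site. Stretches of 4 promoters are shown with the CArG boxes in capitals, as examples of the letters matched in genes called higher.
Cnn2 (chr10:79988514-79988583, plus strand): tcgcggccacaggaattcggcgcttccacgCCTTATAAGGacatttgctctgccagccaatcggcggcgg
Myl9 (chr2:156775273-156775342, plus strand): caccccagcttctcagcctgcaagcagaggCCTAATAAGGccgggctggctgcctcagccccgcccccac
Actg1 (chr11:120348546-120348615, minus strand): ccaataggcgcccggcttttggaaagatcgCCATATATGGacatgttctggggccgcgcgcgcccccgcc
Srf (chr17:46556185-46556274, minus strand): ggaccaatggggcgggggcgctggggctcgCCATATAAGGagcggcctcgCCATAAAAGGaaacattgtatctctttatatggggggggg

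Most targets of YAP and TEAD were called higher. Of 19 tested members 13 rose, 2 fell and 4 were not called (median 0.87, and 0.84 after the correction with 14 higher and 2 lower). Ccn2 (connective tissue growth factor, a matricellular protein; mm10 chr10:24595442-24598683) was at 21.6, 20.9 and 20.1 CPM in mESC-2i and at 130, 128 and 132 CPM in mESC-ser. Ccn1, which encodes a related protein, was at 14.1 ± 1.6 CPM (SD, n = 3) and 81.6 ± 2.6 CPM. The replicates of each group lay close together, and the log2 fold changes were 2.64 (SE 0.10) and 2.54 (SE 0.12). Igfbp3 rose by 2.66, the phosphatase gene Ptpn14 by 2.24 and the feedback kinase gene Lats2 by 0.80. Myof (-1.41) and Ccdc80 (-2.19) fell. Ankrd1, a target often used to read YAP activity, was too low to be tested, with 0 counts in each mESC-2i library and 11, 10 and 15 in mESC-ser. The letters GGAATG, the core of the TEAD motif, were found on either strand in the windows of 6 of 12 genes (50.0%, against 14.6% of all tested genes), and all 6, Amotl2, Axl, Ccn1, Crim1, Lats2 and Ptpn14, rose. Of the 6 genes without the letters 5 rose and Myof fell. The median was 1.84 with the letters and 1.79 without them. The stretch of Ccn1, in which capitals mark the motif read from the opposite strand, is shown as an example.
Ccn1 (chr3:145650053-145650118, minus strand): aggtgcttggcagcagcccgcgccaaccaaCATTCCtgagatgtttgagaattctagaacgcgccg

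Targets of BMP signalling split. Id1, Id2 and Id3, inhibitors of basic helix-loop-helix factors that BMP induces through SMADs, rose by 3.47 (SE 0.15), 1.20 (SE 0.16) and 0.87 (SE 0.16). Id1 was at 4.65, 5.04 and 3.50 CPM in mESC-2i and at 45.7, 49.1 and 51.0 CPM in mESC-ser. Bmp4 itself rose by 1.96. In contrast, Id4 fell by 3.23 on the log2 scale and Smad9, a receptor-regulated SMAD, from 14.2 ± 0.10 CPM to 0.681 ± 0.21 CPM. Over the list 6 of 13 rose and 4 fell, and 7 and 4 after the correction. The feedback inhibitors Smad6 (0.42) and Smad7 (-0.45) were not called, and Smad6 was called higher after the correction, at 0.65.

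Hormone and insulin genes did not follow one direction. Of 14 retinoid genes 3 rose (21.4%, against 25.9% of all tested genes) and 6 fell (42.9%, against 30.3%). After the correction 4 rose and 5 fell. Rarg, a retinoic acid receptor, rose from 34.6 ± 3.4 CPM to 343 ± 22 CPM, by 3.31 (SE 0.12), and Cyp26a1, which degrades retinoic acid, by 3.10 from 0.271 ± 0.24 CPM to 2.09 ± 0.37 CPM. The synthesis enzymes Aldh1a3 and Aldh1a2 fell by 3.43 and 1.66 on the log2 scale, and the binding protein gene Crabp1 fell from 64.6 ± 13 CPM to 8.41 ± 0.98 CPM. Of 13 steroid and thyroid hormone response genes 6 rose (46.2%) and 5 fell (38.5%) in both fits. Among the glucocorticoid targets Klf9 (0.86) and Per1 (0.86) rose, Tsc22d3 fell by 2.98 and Fkbp5 (0.46) and Sgk1 (0.21) were not called. Of the insulin and FoxO genes 7 of 18 rose (38.9%) and 6 fell (33.3%), and after the correction 6 rose and 7 fell. Igf1r, the receptor of insulin-like growth factors, rose by 2.46 and the adaptor gene Irs2 by 2.32, whereas the binding protein genes Igfbp5 and Igfbp2 fell by 3.58 and 1.46 on the log2 scale. Sesn3 was called higher at 0.70 and was at 0.07 after the correction.

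The cell cycle genes separated by phase. Of 20 mitosis genes 15 rose and none fell (median 0.86, and 0.87 after the correction with 18 higher). The proliferation marker Mki67 rose from 156 ± 38 CPM to 545 ± 36 CPM, and Cenpf, a kinetochore protein, was at 87.1, 70.9 and 98.2 CPM in mESC-2i and at 313, 304 and 338 CPM in mESC-ser. Both genes are long, and their log2 fold changes of 1.80 and 1.90 were 1.40 and 1.18 after the correction. The short gene Cdc20, an activator of the anaphase-promoting complex, moved the other way, from 1.28 to 1.73 with the correction. Of 26 DNA replication genes 3 rose (Cdc6, Rfc1 and Pole), a share (11.5%) below the 25.9% of all tested genes. After the correction 5 rose, and none fell in either fit. Pcna, the sliding clamp, was at 229 ± 32 CPM and 232 ± 24 CPM (0.02, SE 0.13).

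Genes of the G1 phase moved in both directions. Cdkn1a, which encodes the inhibitor p21 (mm10 chr17:29090976-29100727), was at 366, 398 and 350 CPM in mESC-2i and between 44.8 and 45.8 CPM in the 3 mESC-ser libraries (log2 fold change -3.04, SE 0.10, edgeR adjusted p = 1.5e-08). Of the other inhibitors, Cdkn2a (-2.07), Cdkn2c (-2.14), Cdkn2b (-1.11) and Cdkn1b (-0.86) fell too, while the imprinted Cdkn1c rose from 15.0 ± 4.2 CPM to 77.2 ± 1.4 CPM (2.38, SE 0.17). Cyclin E1 (Ccne1) rose by 2.23 and cyclin D1 (Ccnd1) fell by 0.76 on the log2 scale. Over the list 8 of 24 rose and 11 fell, and 7 and 9 after the correction. Of the 19 p53 targets, Cdkn1a included, 3 rose (15.8%, against 25.9% of all tested genes) and 5 fell (26.3%, against 30.3%). After the correction 3 rose and 7 fell. Mdm2 was at 0.22 and Bax at -0.30, neither called, and Pmaip1, a proapoptotic BH3 protein, rose by 2.31.

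Of 28 ribosome biogenesis genes 11 (39.3%, against 25.9% of all tested genes) were called higher, 17 were not called and none was called lower. After the correction 18 were higher and none lower, and the median was 0.45 without and 0.65 with it. Ncl, nucleolin, showed the largest gain in CPM of all tested genes, from 1880, 1681 and 1870 CPM to 3742, 3581 and 4080 CPM. Odc1, the first enzyme of polyamine synthesis, rose by 1.51 (SE 0.14), the helicase gene Ddx21 by 1.49 and the RNA polymerase I subunit gene Polr1a by 1.25. Fbl (-0.12) and Nop56 (0.04), core proteins of small nucleolar ribonucleoproteins, were not called. The whole Ddx symbol family of RNA helicases had 18 of 37 members higher and 0 lower (21 higher and 1 lower after the correction). Ribosomal protein genes pointed the other way. In the Rpl family 42 of 50 genes were called lower and 1 higher, and after the correction 26 lower and 2 higher. Of 29 splicing factor genes 6 were called higher, a share (20.7%) below the 25.9% of all tested genes, and none lower. After the correction 6 were higher and Srsf3 was lower, at -0.55. The largest changes were those of Prpf8 at 1.31 (SE 0.12) and Snrnp200 at 1.04. Hnrnpu, at 0.75, was at 0.08 after the correction.

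Few proteasome subunits were called. Of 32 members 2 rose and 3 fell, with a median of -0.08, and after the correction 4 rose and 1 fell with a median of 0.12, so that the sign of the median depended on the correction. Psmb5, a catalytic subunit, was called lower at -0.61 but was at -0.45 without mESC-2i replicate 2 and at -0.17 after the correction. Of 20 chaperone genes 8 rose and 3 fell, and 7 and 2 after the correction. Hsph1 rose from 81.2, 73.7 and 85.5 CPM to 237, 231 and 226 CPM and the mitochondrial chaperonin gene Hspd1 by 1.14. Hspb8, a small heat shock protein that works in selective autophagy, fell from 143 ± 31 CPM to 13.3 ± 2.4 CPM (-3.43, SE 0.19), and its partner Bag3 fell by 0.84 but was not called after the correction (-0.46). Among ER stress genes 5 of 20 rose and 4 fell, and 7 and 0 after the correction. Hspa5, the main ER chaperone, rose by 0.59, while Ddit3 (-0.74) and Herpud1 (-0.87) were called lower only without the correction (-0.28 and -0.42 with it).

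Lysosome genes were the list with the largest share of members called lower. Lysosomes degrade proteins, lipids and glycans with acid hydrolases, and 26 of the 32 members fell, 2 rose and 4 were not called (median -1.29, and -1.11 after the correction with 27 lower and 2 higher). Their summed level was 4953 to 5648 CPM in mESC-2i and 1760 to 1909 CPM in mESC-ser. Ctsb, the protease cathepsin B (mm10 chr14:63122462-63145923), was at 269, 297 and 235 CPM in mESC-2i and at 37.5, 42.4 and 31.7 CPM in mESC-ser (log2 fold change -2.85, SE 0.14, edgeR adjusted p = 9.32e-08). Npc2, a cholesterol carrier of the lysosome, fell by 3.15, the hexosaminidase gene Hexa by 2.95, and Grn, progranulin, by 2.38. The abundant membrane protein gene Lamp1 was at 836, 863 and 674 CPM in mESC-2i and at 385, 368 and 349 CPM in mESC-ser. Gpnmb, a glycoprotein of lysosomes and melanosomes, fell most within the list, from 30.2, 29.6 and 26.0 CPM to 1.26, 0.179 and 1.45 CPM. The members that rose were Scarb2 (1.34), a membrane receptor of the lysosome, and Ctsz (1.10), a cathepsin.

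The letters CACGTG, an E-box read by MiT/TFE factors and by many other helix-loop-helix factors, were found in the windows of 11 of 24 lysosome genes (45.8%, against 11.8% of all tested genes). 10 of these fell and Cln3 was not called (-0.47). The median was -1.17 with the letters and -1.90 in the 13 genes without them, of which 11 fell. The median of the genes without the letters was thus the lower one. Of the ribosome biogenesis genes 4 of 23 (17.4%) held the same letters in a window, and of these Mybbp1a and Wdr43 were called higher. Of the 19 genes without the letters 7 were called higher. Lamp1 held 4 matches, Mcoln1 2 and Glb1, which fell by 1.24 on the log2 scale, 1, and their stretches are shown with the E-boxes in capitals.
Lamp1 (chr8:13159070-13159160, plus strand): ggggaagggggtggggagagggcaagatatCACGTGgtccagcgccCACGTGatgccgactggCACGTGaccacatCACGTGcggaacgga
Mcoln1 (chr8:3500418-3500509, plus strand): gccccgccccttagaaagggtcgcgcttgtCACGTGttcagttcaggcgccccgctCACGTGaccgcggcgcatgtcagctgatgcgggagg
Glb1 (chr9:114401000-114401065, plus strand): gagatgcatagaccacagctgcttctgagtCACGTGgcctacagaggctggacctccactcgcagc

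**Figure D3:**
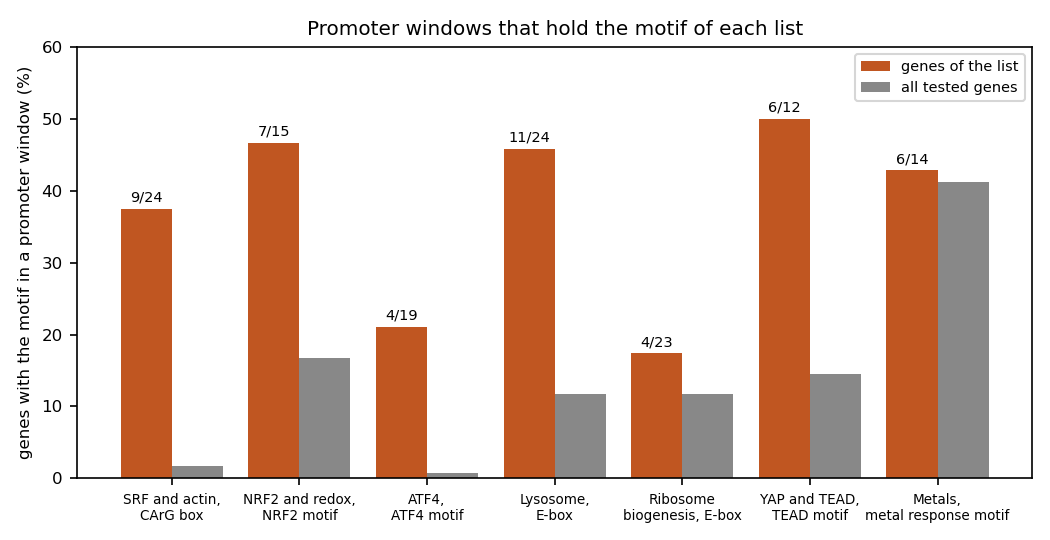
Percent of genes with the motif of their list in a promoter window (orange, with the number of genes above each bar) beside the percent of all tested genes with a window (grey). The CArG box stands in 37.5% of SRF-list genes against 1.65% of all, and the metal response motif in 42.9% against 41.2%.

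Genes of the amino acid response were more often called lower than higher in serum culture. ATF4, a transcription factor made when amino acids run short, drives synthesis and import of amino acids, and of 22 genes of this list 12 fell and 2 rose (median -0.69, and -0.42 after the correction with 9 lower and 2 higher). Asns, asparagine synthetase (mm10 chr6:7675169-7693254), was at 950, 963 and 836 CPM in mESC-2i and at 240, 250 and 232 CPM in mESC-ser (log2 fold change -1.93, SE 0.11). Nupr1, a small stress-induced nuclear protein, fell from 71.1 ± 2.0 CPM to 6.05 ± 0.59 CPM (-3.55, SE 0.12). Trib3 (-0.89), Atf5 (-0.98) and Psat1 (-0.81) fell as well. Phgdh, the first enzyme of serine synthesis, was called lower at -0.60 but was at -0.21 after the correction, -0.45 without mESC-2i replicate 2 and -0.45 without mESC-ser replicate 3. The import genes were less affected, with Slc7a5 (-0.36) and Slc3a2 (-0.39) not called and Slc7a3 higher at 0.51. Cebpb was called higher at 0.53, and was at 0.42 without mESC-2i replicate 3 and 0.49 without mESC-ser replicate 3, short of the threshold. The letters TTGCATCA stood, on either strand, in the windows of 4 of 19 genes (21.1%, against 0.728% of all). Of these Nupr1 and Pycr1 fell, and Chac1 and Slc7a11 were not called. Of the 15 genes without the letters 9 fell and 1 rose. The median was -0.84 with the letters and -0.69 without them. Slc7a11 (-0.69) was called lower after the correction, at -1.42. The stretches of Nupr1 and Pycr1 are shown with the matches in capitals, which in Pycr1 mark the motif read from the opposite strand.
Nupr1 (chr7:126625543-126625610, minus strand): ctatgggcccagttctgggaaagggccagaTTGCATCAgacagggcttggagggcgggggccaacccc
Pycr1 (chr11:120643814-120643881, minus strand): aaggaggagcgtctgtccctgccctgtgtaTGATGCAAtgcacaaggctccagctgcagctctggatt

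Mouse embryonic stem cells are known to rely on threonine breakdown for glycine and one-carbon units. Tdh, threonine dehydrogenase, was at 521, 553 and 469 CPM in mESC-2i and at 177, 172 and 157 CPM in mESC-ser (-1.61, SE 0.11), and Gcat, the next enzyme of the route, fell by 1.47. Further down, Gldc of the glycine cleavage system (0.26) and Shmt1 (0.03) were not called, and Mtr (0.87) and Mat2a (0.84) of the methionine cycle rose. In all 3 of 18 genes rose and 5 fell (27.8%, against 30.3% of all tested genes), and after the correction 3 rose and 3 fell. The median of this list was -0.0050 without the correction and 0.20 with it. The cytosolic folate enzyme Aldh1l1, which is no member of the list, had 684, 1134 and 1049 counts in mESC-2i and 66, 50 and 96 in mESC-ser (log2 fold change -4.22, SE 0.14). It belongs to the Aldh family of aldehyde dehydrogenases, in which 12 of 16 tested genes fell and 0 rose. That family had the second lowest median, -1.21, of 86 symbol families.

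Fatty acid oxidation genes fell in 15 of 21 cases and none rose (median -0.82, and -0.67 after the correction with 15 lower and 1 higher). Cpt1a, which admits long-chain fatty acids to the mitochondrion (mm10 chr19:3322334-3385733), was at 176, 169 and 176 CPM in mESC-2i and at 38.0, 36.5 and 43.3 CPM in mESC-ser. The change was -2.14 on the log2 scale (SE 0.11, edgeR adjusted p = 9.21e-08). The carnitine carrier gene Slc25a20 fell by 1.62 and Echs1, an enoyl-CoA hydratase, by 1.46. Not every step fell, as Hadhb (0.27), Acadvl (0.29) and Cpt2 (-0.27) were not called, and Acadvl was called higher after the correction, at 0.71. Of 13 mitochondrially encoded mRNAs 9 were called lower and 1, mt-Nd6, higher, and after the correction 9 were lower and none higher, with mt-Nd6 going from 0.59 to 0.38. mt-Co3 fell from 5366, 5902 and 5109 CPM to 1719, 1631 and 1815 CPM (-1.67), whereas mt-Nd4, mt-Nd5 and mt-Cytb rested on mESC-2i replicate 3. At -0.61, -0.64 and -0.51 they were called, but without that library they were at -0.33, -0.34 and -0.31, short of the fold threshold. mt-Nd5 also lost the call without any 1 of the mESC-ser libraries (adjusted p 0.0514 to 0.0668), mt-Nd4 without mESC-ser replicate 2 (adjusted p 0.0511) and mt-Cytb without mESC-ser replicate 1 or 2 (-0.47 and -0.41). With replicate number as a block mt-Cytb was at -0.49, and with DESeq2 at -0.48, both short of the fold threshold.

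Redox and metal genes were mixed. Of 19 NRF2 genes 9 fell and 3 rose (median -0.63, and -0.49 after the correction with 9 lower and 4 higher). The quinone reductase gene Nqo1 was at 63.4, 69.0 and 49.1 CPM in mESC-2i and at 25.3, 25.6 and 17.5 CPM in mESC-ser, and Me1, a malic enzyme that makes NADPH, fell by 2.02. Gclm (1.19), Hmox1 (0.94) and Txnrd1 (0.86), also textbook NRF2 targets, rose. The motif TGACNNNGC stood in the windows of 7 of 15 genes (46.7%, against 16.7%), of which Gclm and Txnrd1 rose, Me1 and Pgd fell, and G6pdx, Prdx1 and Srxn1 were not called. Of the 8 genes without the motif 6 fell and 0 rose. The median was -0.15 with the motif and -0.94 without it. G6pdx was called higher after the correction, at 0.54. Of 17 iron, zinc and copper genes 6 rose and 6 fell, and 5 and 5 after the correction. The metallothionein genes Mt1 and Mt2, which bind zinc and copper, fell by 1.87 and 1.33 on the log2 scale. Mt1 was at 375, 411 and 293 CPM in mESC-2i and at 102, 98.8 and 95.6 CPM in mESC-ser. The zinc exporter gene Slc30a1, which the same metal-responsive factor drives, was at -0.23 and not called. The iron exporter gene Slc40a1 rose by 1.96 and the iron uptake receptor gene Tfrc was at 0.44, not called. The letters TGCACNC or TGCGCNC stood in the windows of 6 of 14 genes, 42.9%, and of 41.2% of all tested genes.

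Epithelial genes were more often called higher than lower in serum culture. Of 27 junction and keratin genes 14 rose and 4 fell (median 0.82, and 1.19 after the correction with 16 higher and 4 lower). With at least 10 counts required in every library, which drops Esrp1, 12 rose and 4 fell, with a median of 0.43. Esrp1, a splicing regulator of epithelia (mm10 chr4:11331933-11386783), was at 1.23, 0.810 and 0.683 CPM in mESC-2i and at 68.1, 69.0 and 78.9 CPM in mESC-ser (log2 fold change 6.36, SE 0.19, edgeR adjusted p = 8.1e-09). Cldn6 rose by 3.47, the transcription factor gene Grhl2 by 3.13 and Krt18, a simple keratin, from 12.1 ± 1.8 CPM to 101 ± 3.8 CPM. Epcam, an adhesion molecule, rose by 1.67. E-cadherin (Cdh1) was at 714, 658 and 719 CPM and 643, 629 and 659 CPM, and was not called (-0.12). Spint1 (-1.24), Cldn3 (-1.38), Cldn4 (-1.05) and Tjp3 (-0.65) fell, of which Tjp3 was not called after the correction (-0.47). Of 14 mesenchymal genes 4 rose (28.6%, against 25.9% of all tested genes) and 3 fell (21.4%, against 30.3%). After the correction 3 rose and 6 fell. Vim fell from 458 ± 61 CPM to 188 ± 6.1 CPM and Tgfbr2 by 2.67, while S100a6 (2.63) and Itga5 (1.62), the fibronectin receptor, rose. Snai1 (-0.10), Zeb1 (-0.15) and Cdh2 (-0.13) were not called, and after the correction Zeb1 and Cdh2 were called lower, at -0.60 and -0.50.

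Matrix genes moved in both directions. Of 33 genes 12 rose (36.4%, against 25.9% of all tested genes) and 11 fell (33.3%, against 30.3%), with the same counts after the correction. Thbs1, thrombospondin, rose from 4.24, 3.87 and 3.33 CPM to 149, 140 and 173 CPM (5.35, SE 0.15), Col18a1 by 1.64, the perlecan gene Hspg2 by 1.61 and Col4a1 by 1.40. Lamb2 (-1.78), Timp1 (-1.59), Lama1 (-0.91) and Nid1 (-0.80) fell. Fn1, fibronectin, was called lower at -0.58 with 1490, 1324 and 2120 CPM in mESC-2i and at 1040, 1029 and 1243 CPM in mESC-ser. Without mESC-2i replicate 3 it was at -0.35, and without mESC-ser replicate 1 or 2 its adjusted p was 0.0578 or 0.0624. The median of the list was -0.15, and 5 of the 6 fits that left out a library gave one above 0, between 0.054 and 0.13.

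**Figure D4:**
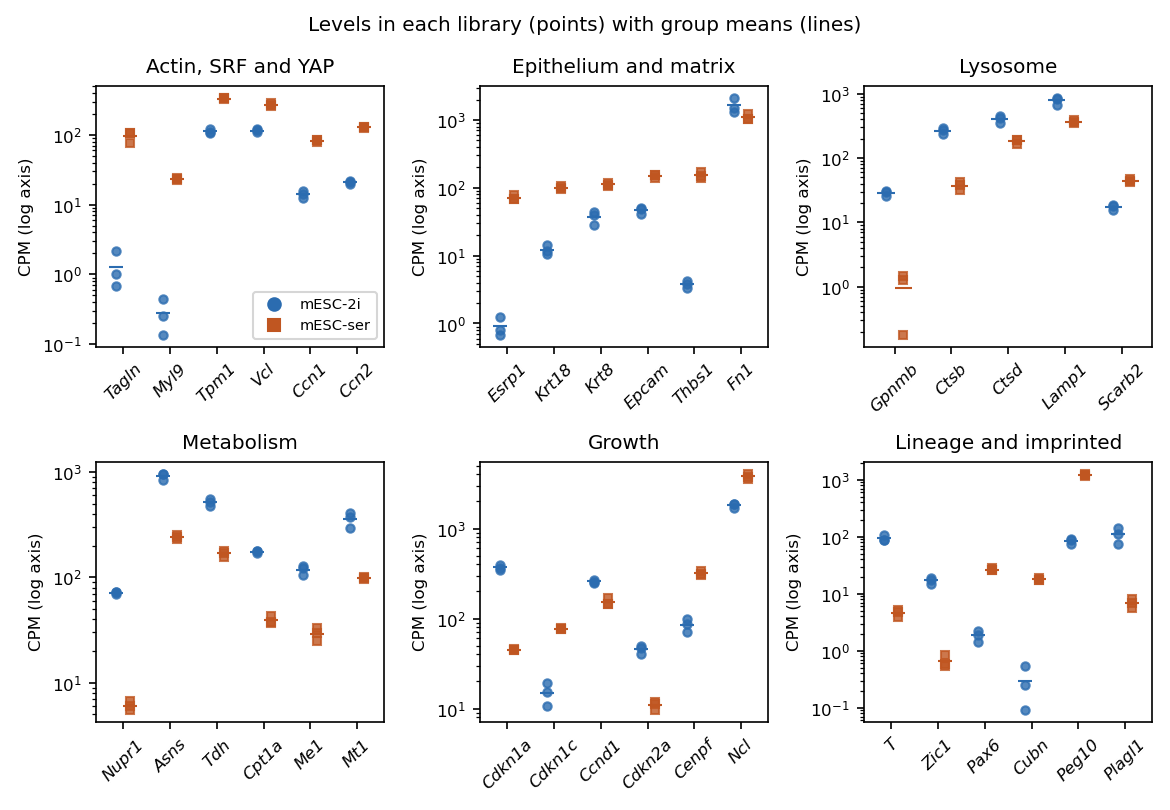
Level of 35 named genes in each library (CPM, log axis), mESC-2i as blue circles and mESC-ser as orange squares, with short lines at the group means. Replicates of a group lie close together and the groups are apart in nearly all panels. The groups lie closest in Fn1, whose mESC-2i libraries span 1324 to 2120 CPM.

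Streak and neural genes were more often called lower than higher in serum culture. Of 14 primitive streak and mesoderm genes 7 fell and 3 rose (median -0.70, and -0.42 after the correction with the same counts). T, or brachyury, a T-box factor of the streak and a target of β-catenin (mm10 chr17:8434423-8442496), was at 86.2, 87.2 and 108 CPM in mESC-2i and at 3.92, 4.75 and 5.18 CPM in mESC-ser (-4.34, SE 0.16). Cdx1 also fell by 4.34, Gsc by 5.21 and Cdx2 by 2.70. Hand1 rose, with 3 counts or fewer in each mESC-2i library and a level in mESC-ser at least 15.3-fold higher. Of 15 neural genes 9 fell and 4 rose in both fits. With at least 10 counts required in every library 4 rose and 2 fell, with a median of 0.80. The lean to lower calls was thus not seen among genes with at least 10 counts in all libraries. That filter drops genes near absent in either group whatever their level in the other, Zic1 and Hes5 among them. It therefore cannot test the fall of such genes. Zic1 was at 14.9, 17.6 and 19.1 CPM and 0.591, 0.537 and 0.843 CPM, Hes5 was at least 31.0-fold lower and Sox1 fell by 1.87, whereas Pax6 rose from 1.86 ± 0.39 CPM to 26.6 ± 1.1 CPM and Neurod1 by 3.31. The sums over the neural list overlapped, at 173 to 191 CPM and 163 to 185 CPM.

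Genes of nerve cell structure, which are longer than most (median exonic length 7347 bp), were split. Of 27 genes 9 were higher (33.3%, against 25.9% of all tested genes) and 10 lower (37.0%, against 30.3%), and 8 and 11 after the correction. Grin1, an NMDA receptor subunit, fell from 82.1 ± 17 CPM to 3.52 ± 0.26 CPM (-4.54, SE 0.18) and Stmn2, a microtubule regulator, rose from 101 ± 8.7 CPM to 302 ± 41 CPM. Dcx, doublecortin, was at least 23.5-fold lower. Primitive endoderm genes rose in 7 of 15 cases and fell in 5, and after the correction 5 rose and 4 fell. The endocytic receptor genes Lrp2, from 8.33 ± 2.5 CPM to 295 ± 32 CPM, and Cubn, from 0.298 ± 0.23 CPM to 18.0 ± 0.84 CPM, rose together, and these proteins are known to act as partners in uptake. Gata6 rose by 2.26 to 4.47 ± 0.70 CPM. Gata4 was called lower at -0.50 just past the threshold. It lost the call with replicate number as a block, with DESeq2 (-0.47), after the correction (-0.23), without mESC-2i replicate 2 (-0.44) or 3 (-0.49) and without mESC-ser replicate 1 (-0.45) or 2 (-0.41). Dab2 was called higher at 0.62, and was at 0.46 without mESC-2i replicate 2 and 0.30 after the correction. Sox17 stayed below the filter, at 4 to 6 counts and 12 to 14 counts.

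Interferon and antigen presentation genes moved in both directions. B2m, the light chain of MHC class I, fell from 62.3, 61.2 and 47.8 CPM to 16.0, 14.4 and 13.4 CPM (-1.97, SE 0.14), and Irf9 and Stat2, which act together in the ISGF3 complex, fell too, Irf9 by 1.74 on the log2 scale and Stat2 from 70.5 ± 18 CPM to 24.96 ± 2.0 CPM. The immunoproteasome genes Psmb8 (1.81), Psmb9 (1.29) and Psmb10 (1.26) and Gbp2 (4.23), a GTPase induced by interferon-γ, rose. Over the list 9 of 23 rose (39.1%, against 25.9% of all tested genes) and 8 fell (34.8%, against 30.3%), with a median of 0.22. After the correction 12 rose and 6 fell (median 0.53). Isg15, Irf7 and Ifit1 were too low to be tested.

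Imprinted genes, which are expressed from a single parental allele, moved in both directions, with 11 of 25 higher and 9 lower, and 11 and 8 after the correction. Peg10, derived from a retrotransposon (mm10 chr6:4747306-4760517), was at 87.1, 75.6 and 92.1 CPM in mESC-2i and at 1196, 1169 and 1283 CPM in mESC-ser (log2 fold change 3.84, SE 0.12). H19, a noncoding RNA, rose by 5.11, Grb10 by 2.86, Zdbf2 by 2.47 and Mest by 2.17. Igf2, the neighbour of H19, was at 111 ± 1.4 CPM and 119 ± 8.7 CPM and was not called. Plagl1 fell from 111, 75.1 and 143 CPM to 6.94, 5.73 and 8.25 CPM, and Nnat by 1.98. Meg3 was called lower at -1.08, but mESC-2i replicate 3 stood at 813 CPM where replicates 1 and 2 stood at 261 and 210 CPM. Without that library Meg3 was at -0.22 and not called, and it was also not called when any 1 of the mESC-ser libraries was left out or with DESeq2.

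Several genomic clusters moved as blocks. In windows of 10 neighbouring tested genes, 50 of 15336 windows held at least 9 genes called higher and 59 at least 9 called lower, and these merged into 8 and 15 runs. HOX genes, which pattern the body axis and are held silent in stem cells by Polycomb, were lower in mESC-ser in 22 of 23 tested genes across the 4 clusters, with and without the correction. Tested were 5 of 11 HoxA, 7 of 10 HoxB, 8 of 9 HoxC and 3 of 8 HoxD genes. Levels in mESC-ser were low, so genes could pass the filter by their counts in mESC-2i alone, which favours lower calls. Hoxc13 had 185, 263 and 271 counts in mESC-2i and 35, 38 and 53 in mESC-ser, and Hoxb9 138, 208 and 287 counts and 35, 36 and 53. Hoxc4 had 53, 69 and 88 counts and 2, 4 and 2. Hoxd13 rose by 1.14. The 9 HoxC genes together went from 57.2 ± 2.7 CPM to 4.69 ± 0.29 CPM. Summed likewise over all genes, tested or not, HoxA went from 24.5 ± 2.1 CPM to 7.90 ± 0.15 CPM. HoxB went from 33.7 ± 1.1 CPM to 6.38 ± 0.80 CPM and HoxD from 14.2 ± 2.1 CPM to 4.70 ± 0.15 CPM.

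The Rhox cluster of homeobox genes on chromosome X was lower in 17 of 18 tested genes in both fits. Of 34 Rhox genes only these 18 were tested, and genes could pass the filter by their counts in mESC-2i alone. Rhox5 had 590, 979 and 933 counts in mESC-2i and 168, 140 and 176 in mESC-ser (-2.81, SE 0.12). In 12 genes every mESC-ser library had 3 counts or fewer, so their folds are bounds, and the median over the 18 genes was -6.13 as fitted and -3.46 with these genes at their bound. Of 10 Xlr genes, also on X, 8 were tested under the same filter, and all 8 fell in both fits. Xlr itself fell from 56, 86 and 88 counts to 0, 0 and 0, at least 34.2-fold. On chromosome 9 a run of 14 genes held 12 called lower, among them Cd3g, a T cell receptor component, with 15, 29 and 21 counts in mESC-2i and none in mESC-ser. Many Rhox and Xlr genes are near-identical copies, and reads could be split or lost among them.

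Other families rose as blocks. The 5 Zscan4 genes, which mark the rare state of stem cells that resembles the cleavage embryo, all rose. Their summed counts in mESC-2i were 6, 12 and 16. They could thus pass the filter by their counts in mESC-ser alone, which favours higher calls. Zscan4c had 2, 2 and 4 counts in mESC-2i and 545, 495 and 449 in mESC-ser (7.07, SE 0.33), and Zscan4f was at least 118-fold higher. Runs on chromosome 12 (10 of 11 genes) and chromosome 10 (13 of 15 genes), which hold mostly or in part gene models without a given name, were called higher too, and after the correction 11 of 11 and 12 of 15 were, with 1 of the latter lower. In the latter Gm20765 had 0, 4 and 1 counts and 128, 113 and 132, and Gm21304 2, 2 and 4 and 129, 114 and 119. In these 2 runs, too, genes could pass the filter by their counts in mESC-ser alone. The longest run covered 40 genes on chromosome 2, of which 37 rose with a median of 1.25, or 33 with the correction. The other 3 fell. The run holds zinc finger genes, among them Zfp965 and Zfp973, beside unnamed gene models. A second zinc finger cluster on chromosome 4 held Zfp978, with 179, 270 and 480 counts and 1789, 1520 and 1782. Many of these genes are near-identical copies, so counts of single genes are uncertain.

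**Figure D5:**
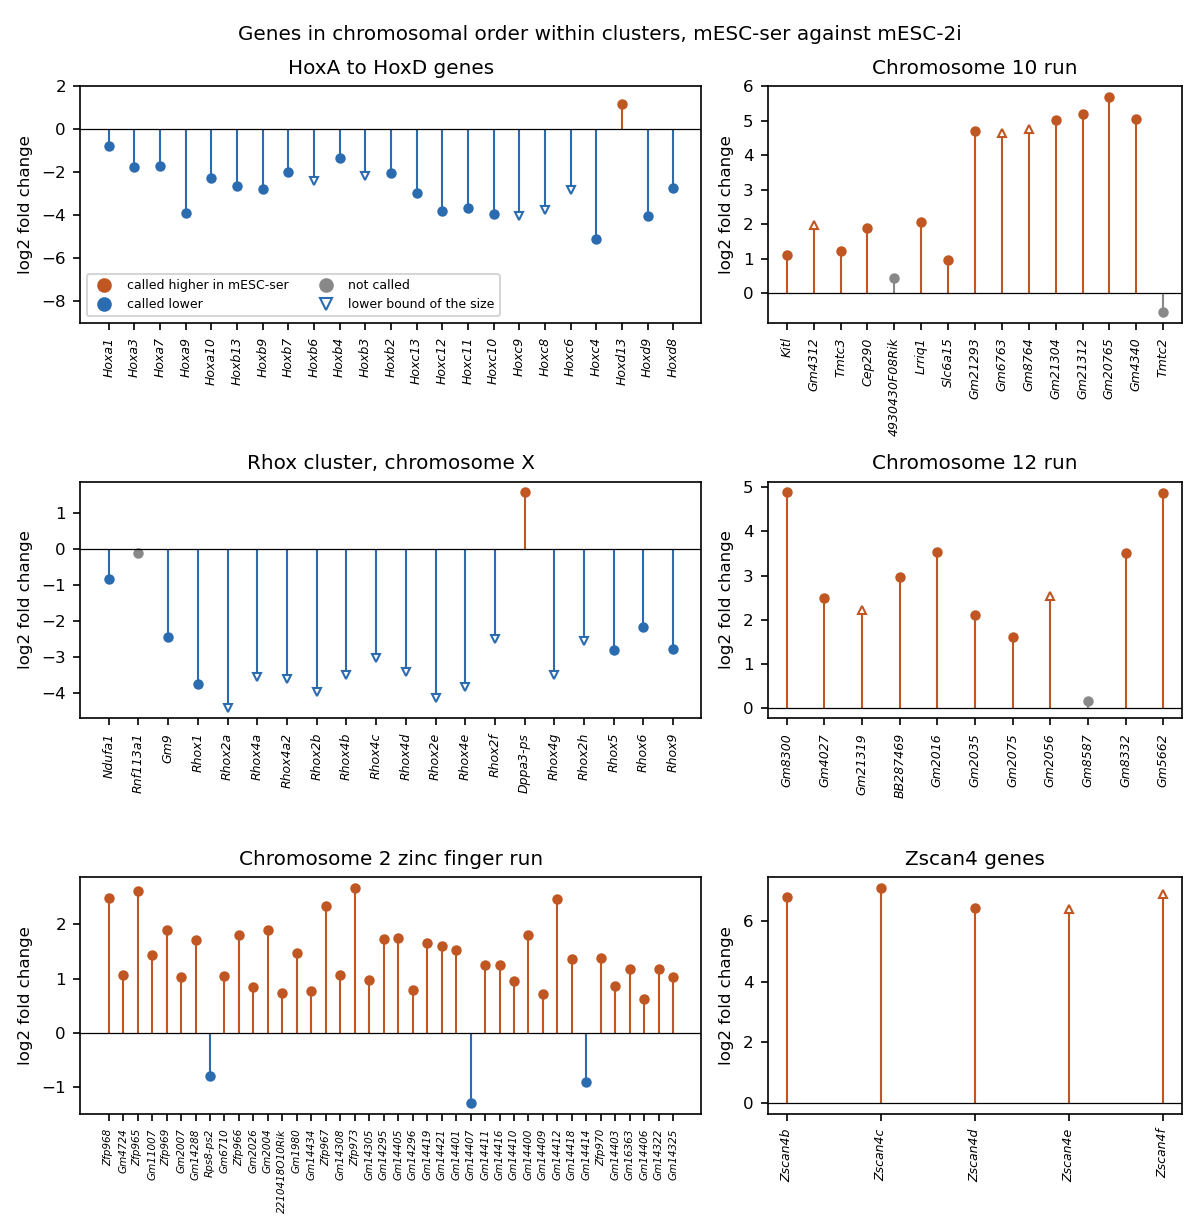
Log2 fold change of each tested gene of the HOX clusters, the Rhox run, the runs on chromosomes 10, 12 and 2, and the Zscan4 genes, in chromosomal order. Filled points are fitted values, open triangles lower bounds of the size for genes with 3 counts or fewer in every library of one group, and colours show the call. HOX genes lie below 0 except Hoxd13, genes of the Rhox run except Dppa3-ps, and 37 of 40 genes of the chromosome 2 run lie above it.

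Genes with the largest folds among those of at least 20 CPM lay outside these lists as well. Wt1, a transcription factor of kidney and gonad, was at 0.274, 0.180 and 0.0854 CPM in mESC-2i and at 25.4, 25.4 and 26.1 CPM in mESC-ser, at least 82.2-fold higher. Slc23a1, a vitamin C transporter, rose by 6.84, Myrf, a myelin regulatory factor, by 6.55 and Spry4, a feedback inhibitor of ERK signalling, by 6.43. Trpm1, a cation channel of melanocytes and retina (mm10 chr7:64153835-64269775), was at 212, 211 and 201 CPM in mESC-2i and at 0.813, 0.358 and 0.482 CPM in mESC-ser. Its fall (log2 fold change -8.52, SE 0.19, edgeR adjusted p = 5.54e-09) was the largest, and Pkd2l1 (-8.01), Calr4 (-7.31), Tnni1 (-7.06), Msx3 (-6.56), Osm (-6.49) and Bhmt (-5.61) were also among the 12 largest. Tnni1 was the lowest of these in mESC-2i, at 19.3, 23.9 and 18.96 CPM, and each stood at 1.25 CPM or less in every mESC-ser library.

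Changes in absolute level were largest in abundant genes. Tet1, a dioxygenase that oxidises 5-methylcytosine, gained second only to Ncl, from 200, 163 and 248 CPM to 1451, 1464 and 1633 CPM (2.90, SE 0.16), and is a long gene whose value after the correction was 2.23. Trim28, a corepressor of retroelements, gained from 1268, 1211 and 1259 CPM to 2486, 2364 and 2617 CPM. Nedd4, a ubiquitin ligase, and Eif4g2, a translation factor, had log2 fold changes of 1.06 and 1.22. Besides mitochondrial mRNAs, the losses were led by Eef1a1, an elongation factor (-0.64, and -0.40 with the correction), and Rack1, a ribosome-bound scaffold (-1.05, SE 0.20). Gm13340, an unprocessed pseudogene, was called lower at -0.69 and was at -0.49 without mESC-2i replicate 3.

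Among the stem cell markers 4 of 9 tested genes rose and 1 fell in both fits. Utf1, a chromatin factor of the pluripotent state, rose from 30.6 ± 3.8 CPM to 359 ± 21 CPM, Dppa2 by 2.19 and Sall4 by 1.36, and Nanog fell by 1.24 on the log2 scale. Platr transcripts, long noncoding RNAs named for their link to pluripotency, had the highest median of the 86 families, 1.03, with 10 of 19 higher and 2 lower. After the correction 13 were higher and 3 lower. Their summed level did not rise, with 119, 119 and 214 CPM in mESC-2i and 116, 126 and 118 CPM in mESC-ser. Platr30 had 2, 2 and 6 counts in mESC-2i and 76, 51 and 78 in mESC-ser, while Platr14 fell by 2.29 on the log2 scale, with 512, 721 and 1765 counts and 261, 239 and 301. Among gene classes, processed pseudogenes were called lower in 633 and higher in 265 of 1603 cases, and after the correction lower in 288 and higher in 489. The direction of that class therefore depended on the length correction, unlike that of the HOX, lysosome, actin and mitosis genes.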

How the data were processed

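The authors trimmed reads with Trim Galore 0.6.6, aligned them to mm10 with HISAT2 2.2.1 and counted them per gene with Subread 2.0.1, and deposited raw counts per Ensembl gene. Poly-A RNA was sequenced in 50 bp single-end reads from a TruSeq v2 kit, which does not mark strand. The annotation release, strand setting and treatment of multi-mapped reads are not given in the sources used here. Columns were matched to samples by name.

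Counts of the 6 libraries were fitted with edgeR 4.0.16 (R 4.3.3, limma 3.58.1), with filterByExpr, TMM scaling and the quasi-likelihood F-test with Benjamini-Hochberg adjustment, and adjusted p-values come from this test. SE is the standard error of the log2 fold change. A gene with 3 counts or fewer in every library of a group was taken to be at the floor, which covers counting error only. In the correction, each library received offsets from natural splines (5 degrees of freedom each) of log exonic length and GC content. Positions came from the GRCm38 annotation, which matched 36429 identifiers (95.1%). Genes were named as lead genes of the lists, as the called member of each list with the largest rise or fall (50 or more counts on average in the group with more, groups not overlapping), and as the called genes with the largest changes over the table, 10 each way in CPM and 12 each way in fold (at least 20 CPM, not clone names). Other members are named where a group is described. The members and lists were chosen with earlier results of these data known.

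Deviations from group means correlated at 0.134, 0.193 and 0.354 across genes between same-numbered libraries and at -0.293 to 0.161 between others, the highest of which is above the lowest same-numbered value. As all 3 same-numbered values exceed 0.1, a fit with replicate number as a block was made beside the reported one, which has no block. The values cannot establish that the numbers pair libraries. In both groups replicate 3 also had the highest correlation with exonic length within its group. What the number stands for is not stated in the labels. Steps were tested on simulated data. Alternatives were other scalings, filters, thresholds, DESeq2 1.42.0, a fit of all 9 libraries, a replicate block and leaving out each library. Some members of the lists are not reported here by name.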

Additional observations from a re-analysis of the deposited data

How the results depend on the processing

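Calls were counted again under each alternative. An absolute log2 fold change over 1 left 4935 genes, 2222 higher and 2713 lower. The other settings stayed within 1.5 times of the main count: 8872 with RLE scaling, 8855 with upper-quartile scaling, 8829 with total counts, 10226 with no filter (24480 genes tested), 7309 with at least 10 counts in every library (13660 tested), 8554 with DESeq2, 9117 with all 9 libraries in one fit and 10430 by the adjusted p alone. With replicate number as a block 8953 genes were called, 4160 higher and 4793 lower, and of the named genes this block changed the calls of Gata4 and mt-Cytb and no other. Leaving out 1 library gave 8581 to 9391 calls, 3930 to 4545 higher and 4542 to 4846 lower.

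The correlation with exonic length, 0.280, was 0.167 with no filter, 0.317 with at least 10 counts in every library, 0.189 with genomic length and 0.234 to 0.311 when 1 library was left out, lowest without mESC-2i replicate 2 and highest without mESC-2i replicate 3. It was 0.0298 with the length and GC correction and 0.0302 with that correction and the block, by construction of the correction.

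Some list medians changed sign. The retinoid median (-0.16) was 0.067 with no filter and -0.29 to 0.023 when 1 library was left out, highest without mESC-ser replicate 1. The proteasome median was 0.12 with the correction, 0.13 with it and the block, and -0.15 to 0.067 when 1 library was left out, above 0 without mESC-2i replicate 2 (0.0058) or mESC-ser replicate 3. The metal median (0.11) was -0.051 and -0.060 with the correction, without and with the block. With at least 10 counts in every library, which leaves fewer genes tested, the interferon median was -0.14, the primitive endoderm median -0.36 and the neural median 0.80. The matrix median (-0.15) was 0.12 with no filter and 0.15 with the correction. The medians over all tested genes of chromosomes 11, 17, 7, 19, 4 and 15 were below 0, and over protein-coding genes with the correction, which changes both the genes and the fit, they were 0.056, 0.050, 0.059, 0.070, 0.069 and 0.12. Chromosomes 8, 5 and 10 went from -0.024, -0.010 and -0.0062 to 0.027, 0.056 and 0.066. The cause was not tested where none is named. Of 199 named genes tested, 163 kept their call in every setting that fitted them and 0 reversed. Depth limits the genes at the floor, whose folds are bounds.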
